A study of Mus musculus with 15 samples.

Results

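The immediate early genes examined here were Fos, Fosb, Jun, Junb, Egr1, Atf3, Ier2, Nr4a1, Dusp1 and Btg2, chosen by name as a readout of cell stimulation or of handling during sorting. Each of the 10 was listed once, with a usable estimate in every library, among 23699 entries per expression table. RNA sequencing had been done on pancreatic islet cells of mice on a mixed 129JC57BL/6 background, all of which carried a cre transgene and a red fluorescent reporter (RFP) switched on by cre. The control mice were, per the labels, heterozygous for FoxO 1, 3 and 4 (the study's methods also describe controls without floxed alleles), and the knockout mice were triple knockouts for the same 3 genes. Cells positive for RFP were sorted by aldefluor, a fluorescent substrate of aldehyde dehydrogenase, into ALDH- and ALDH+ fractions. This gave 3 control ALDH-, 2 control ALDH+, 5 knockout ALDH- and 5 knockout ALDH+ libraries, with no treatment in any group. In 9 libraries cre was driven by the rat insulin promoter (Rip-cre), which is active in beta cells, and in 6 by the Pdx1 promoter (Pdx-cre), which is active in the precursors of endocrine, acinar and duct cells. The Pdx-cre libraries were control ALDH- replicate 3, control ALDH+ replicate 2 and replicates 4 and 5 of both knockout groups. The methods describe islets of several adult Rip-cre animals per genotype, and no source gives the animals behind each library, so p-values measure the spread between these samples, which may in part be technical.

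Immediate early genes are transcribed within minutes of a stimulus, without new protein synthesis, from transcription factors such as CREB and SRF that are already bound and are switched on by calcium, cAMP and MAP kinase signals. In beta cells, glucose and depolarization are known to induce them, and enzymatic digestion and sorting of tissue are known to do so as well. Fos and Fosb pair with Jun and Junb as the AP-1 transcription factor. Egr1, Atf3 and Nr4a1 are transcription factors of other families, Ier2 is a small nuclear protein, Dusp1 is a phosphatase that switches MAP kinases off, and Btg2 is an antiproliferative cofactor.

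Levels were FPKM, the fragments per length of transcript and per mapped depth, which can be compared between genes. In mm9 coordinates Fos lay at chr12:86814851-86818219, Fosb at chr7:19888045-19895394, Jun at chr4:94715727-94718913, Junb at chr8:87500808-87502647 and Dusp1 at chr17:26642536-26645417. Atf3 lay at chr1:192994176-193007212, Btg2 at chr1:135971442-135975732, Ier2 at chr8:87185230-87186751 and Nr4a1 at chr15:101097277-101105225.

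The promoters of Fos, Jun, Junb and Dusp1, whose levels differed with ALDH or with the cre driver, and of Fosb are given here because the members are known to share regulatory motifs there. Each is the RefSeq window (GRCm38.p6) of 250 bases before to 50 bases after the start, and the capitals mark TGACG on either strand, the cAMP response element TGACGTCA that contains it, and TATAAA. The Fos window (chr12:85473640-85473939, plus strand) held TGACG 129 and 66 bases and TATAAA 33 bases before the start:
Fos: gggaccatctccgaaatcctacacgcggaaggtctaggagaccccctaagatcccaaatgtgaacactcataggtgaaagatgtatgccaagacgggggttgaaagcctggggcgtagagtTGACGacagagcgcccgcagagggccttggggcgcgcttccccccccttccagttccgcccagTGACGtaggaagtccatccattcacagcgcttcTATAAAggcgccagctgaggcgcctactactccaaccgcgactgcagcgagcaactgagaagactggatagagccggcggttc
The Fosb window (chr7:19309996-19310295, minus strand) held TGACG 60 bases before the start:
Fosb: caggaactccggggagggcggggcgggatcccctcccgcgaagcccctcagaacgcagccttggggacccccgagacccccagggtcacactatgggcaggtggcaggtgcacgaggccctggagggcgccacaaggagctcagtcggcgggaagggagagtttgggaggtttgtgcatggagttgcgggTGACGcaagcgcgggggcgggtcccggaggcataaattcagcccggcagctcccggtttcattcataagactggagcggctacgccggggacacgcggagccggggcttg
The Jun window (chr4:95052173-95052472, minus strand) held none of the 3:
Jun: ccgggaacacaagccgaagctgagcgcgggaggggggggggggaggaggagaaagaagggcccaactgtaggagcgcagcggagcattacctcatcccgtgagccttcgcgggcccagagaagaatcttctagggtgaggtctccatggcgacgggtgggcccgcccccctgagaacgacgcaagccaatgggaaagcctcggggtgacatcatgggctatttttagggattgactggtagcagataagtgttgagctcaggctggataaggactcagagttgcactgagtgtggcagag
The Junb window (chr8:84978699-84978998, minus strand) held TGACG 106 bases before the start and TATAAA at base 1 after it:
Junb: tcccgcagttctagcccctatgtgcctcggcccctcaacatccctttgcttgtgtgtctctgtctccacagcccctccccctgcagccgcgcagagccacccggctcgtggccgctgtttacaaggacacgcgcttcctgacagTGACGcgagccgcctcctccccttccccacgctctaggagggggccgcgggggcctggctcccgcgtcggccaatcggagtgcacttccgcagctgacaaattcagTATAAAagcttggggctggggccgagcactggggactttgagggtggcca
The Dusp1 window (chr17:26508423-26508722, minus strand) held TGACG 191 bases and TGACGTCA 143 bases before the start:
Dusp1: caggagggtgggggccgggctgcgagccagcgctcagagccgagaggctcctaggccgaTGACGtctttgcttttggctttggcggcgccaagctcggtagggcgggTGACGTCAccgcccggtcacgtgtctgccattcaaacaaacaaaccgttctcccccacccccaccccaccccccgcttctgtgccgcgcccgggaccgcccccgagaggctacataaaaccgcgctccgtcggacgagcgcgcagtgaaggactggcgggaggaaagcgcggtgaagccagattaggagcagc
Of the 10 members 8 matched a window, all but Egr1 and Ier2. Among them 7 held TGACG on either strand, against 20.8% of 32817 distinct windows of this length, and 2 (Dusp1 and Btg2) held TGACGTCA, against 1.79%. TATAAA on the gene strand was in 2 members, Fos and Junb, against 8.32%, and GCGNGGGCG, the EGR motif searched on both strands, was in 3, Btg2, Fosb and Nr4a1, against 5.56%. No member's window held the AP-1 motif TGANTCA (7.81% of windows) or the CArG box bound by SRF (1.63%), which says only that these letters are not in these windows. A match is a description of the sequence and does not show that a factor binds there.

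The libraries held 7490987 to 10057002 fragments, as worked out from the intervals in the tables, with a median of 9280829. Foxo1 was at 12.04 to 20.1 FPKM in the control and 0.0925 to 4.24 FPKM in the knockout libraries, whereas Foxo3 ranged from 9.78 to 30.6 FPKM with the genotypes overlapping. Foxo4 reached 1.34 FPKM at most in control and 0.0669 FPKM in knockout libraries. Aldh1a3, the enzyme behind the sort, was at 22.1 to 76.9 FPKM in ALDH+ and 0.490 to 4.09 FPKM in ALDH- libraries. All 8 measured beta-cell markers were detected under both cre drivers, and the levels of the other islet and acinar markers differed between them, as given with the cre comparison.

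Egr1 was the most abundant member in each of the 15 libraries, with a median of 240.9 FPKM (155 to 399), and Fos was always second, with a median of 110.8 FPKM (67.8 to 169). Btg2 followed with a median of 63.0 FPKM, above Dusp1 (51.9 FPKM) in 10 of 15 libraries, so that these neighbours did not separate beyond their spread. Ier2, Jun and Junb had medians of 26.31, 19.997 and 19.66 FPKM. Ier2 lay above Jun in 11 of 15 libraries and Jun above Junb in 9 of 15. Nr4a1, Fosb and Atf3 were lowest, with medians of 10.2, 9.12 and 8.76 FPKM and ranges that overlapped almost wholly. The counts behind these levels were 4757 to 10439 fragments for Egr1 and 1292 to 3245 for Fos but only 57 to 302 for Atf3, 93 to 546 for Nr4a1 and 100 to 1042 for Fosb, so single values of the last 3 carry more counting error. The plot of FPKM by library shows these levels in all 4 groups.

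**Figure D1:**
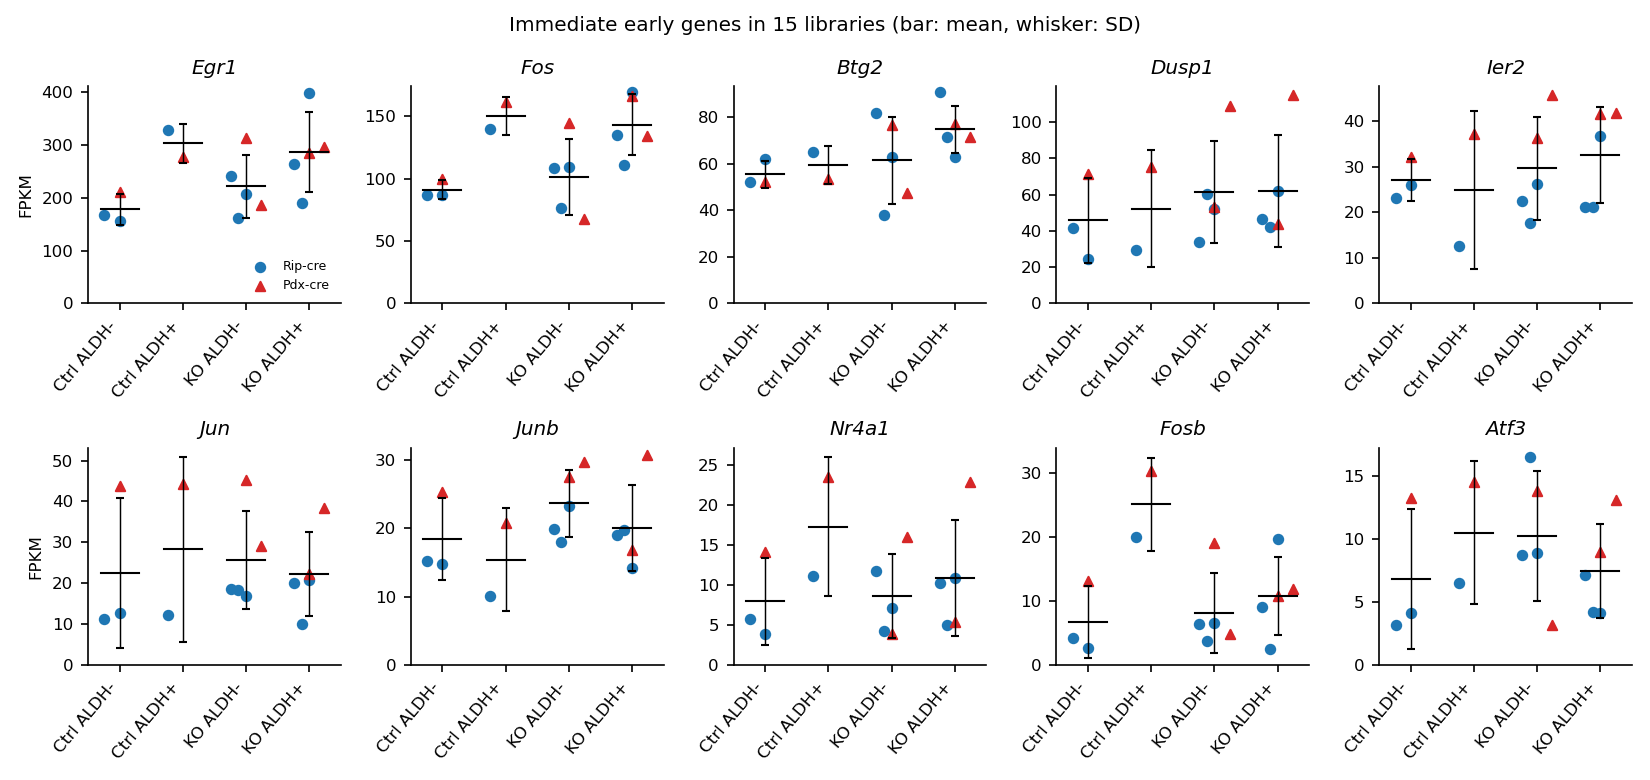
FPKM of each of the 10 immediate early genes in every library, by genotype and ALDH fraction, on linear axes that start at 0; circles are Rip-cre, triangles Pdx-cre, and the bar and whisker of each group are its mean and SD. All 7 ALDH+ values of Fos lie between 110.8 and 169 FPKM, while Jun is at 22.2 FPKM or more in the 6 Pdx-cre libraries and at 20.8 FPKM or less in the 9 Rip-cre libraries.

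Averaged over the genotypes, Fos RNA was higher in ALDH+ than in ALDH- cells, and the other members did not pass the test. Fos was at 87.0, 86.9 and 99.7 FPKM in the control ALDH- libraries 1 to 3 and at 139.3 and 161.1 FPKM in the control ALDH+ libraries 1 and 2. In the knockout it was at 108.1, 76.8, 109.1, 144.3 and 67.8 FPKM in ALDH- libraries 1 to 5 and at 134.7, 110.8, 169.0, 166.0 and 133.9 FPKM in ALDH+ libraries 1 to 5. The control fractions did not overlap, whereas in the knockout ALDH- library 4 lay among the ALDH+ values. Averaged over the genotypes and with the cre driver in the model, the difference in log2(FPKM + 1) was 0.60 ± 0.16 (SE), a 1.51-fold higher level in ALDH+ cells with a 95% interval of 0.27 to 0.93 on the log2 scale (limma, Benjamini-Hochberg adjusted p = 0.0323). In bulk libraries a change in RNA per cell and a change in the share of cells that express a gene cannot be told apart. Fos was 1 of 10 members called in this comparison, where 5.98% of all 11253 genes tested were called in either direction and 2.22% as higher. The exact permutation of ALDH labels within genotype and cre driver gave an unadjusted two-sided p of 0.00278 for Fos over 720 arrangements. The call of Fos by limma was lost in the 9 Rip-cre libraries alone, where the difference was 0.59 (adjusted p = 0.136), without the cre term (0.61, 0.0704), without the filter on low genes (adjusted p = 0.0587), without the variance trend (0.0715) and with a replicate block on equal numbers (0.61, 0.169). It was also lost when control ALDH- library 1 (0.58, adjusted p = 0.0739), 2 (0.58, 0.0827) or 3 (0.65, 0.0526), control ALDH+ library 1 (0.63, 0.179) or 2 (0.57, 0.103), or knockout ALDH+ library 4 (0.58, 0.0505) was left out, while the difference stayed between 0.51 and 0.66.

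Egr1 and Fosb lay on the same side as Fos without passing adjustment. The study's own count test listed both as differentially expressed and higher in ALDH+ cells. That test was on wild-type cells alone, not on the mean of genotypes, and used counts in place of FPKM. Egr1 was at 168, 155 and 211 FPKM in control ALDH- and 329 and 277 FPKM in control ALDH+ libraries. In the knockout its ALDH- values were 241, 161, 207, 313 and 186 FPKM and its ALDH+ values 263, 189, 399, 285 and 296 FPKM, which overlapped. Its mean difference was 0.54 ± 0.17 on the log2 scale (limma adjusted p = 0.0737). It passed without knockout ALDH- library 4 (0.60, adjusted p = 0.0455), without knockout ALDH+ library 2 (0.615, 0.0352) and with limma-voom on fragments (adjusted p = 0.0342). Fosb was at 4.2, 2.73 and 13.1 FPKM in control ALDH- and at 20.004 and 30.3 FPKM in control ALDH+ libraries. In the knockout it was at 6.43, 3.74, 6.50, 19.1 and 4.79 FPKM in ALDH- and 9.12, 2.49, 19.7, 10.8 and 11.9 FPKM in ALDH+ cells, again overlapping. The mean difference of Fosb was 1.10 ± 0.37 on the log2 scale (limma adjusted p = 0.0915), and it passed without knockout ALDH+ library 2 (1.28, adjusted p = 0.0324). By the exact permutation within genotype and cre driver, 3 of the 10 members, Fos, Egr1 (p = 0.0125) and Fosb (p = 0.0458), had an unadjusted p under 0.05, all higher in ALDH+ cells, where 8.99% of all genes tested did so as higher. Permuted within genotype alone, Fosb no longer did (exact permutation p = 0.0841).

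The other 7 members did not pass in this comparison. Nr4a1, an orphan nuclear receptor, had a difference of 0.635 ± 0.37 on the log2 scale (limma adjusted p = 0.359), and Junb had the most negative one, -0.32 ± 0.16 (limma adjusted p = 0.272). Btg2 was at 0.20, Atf3 at 0.10, Dusp1 at 0.01, Jun at -0.05 and Ier2 at -0.15. The signs of Atf3, Dusp1, Jun and Ier2 were not stable to the choice of libraries or model. In all, 7 of 10 members had a positive difference, with a median of 0.15 on the log2 scale against -0.02 over all genes tested. No member separated ALDH+ from ALDH- cells across all 15 libraries, which 0.711% of genes tested did in either direction.

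Within each genotype, no member was called by limma. In the controls, where 1.22% of genes were called, 3 members and 14.3% of all genes had an unadjusted p under 0.05. The differences of these 3 were 1.81 ± 0.61 for Fosb, 0.71 ± 0.28 for Egr1 and 0.66 ± 0.26 for Fos on the log2 scale. These were also the 3 members whose control fractions did not overlap, all higher in ALDH+ cells, as were 14.1% of genes tested with only 3 and 2 libraries. With the 5 control libraries fitted alone, Fosb was called (1.73, limma adjusted p = 0.0379). In the knockout 0.0178% of genes were called, 1 member and 13.1% of all genes had an unadjusted p under 0.05, and the difference of Fos, that member, was 0.54 ± 0.18 on the log2 scale (limma adjusted p = 0.223). The genotypes were then compared directly, as the difference of these differences. No member was called by limma for the interaction (0% of genes called, 476 genes and 0 members at an unadjusted p under 0.05), and its estimate was -1.42 for Fosb, with a 95% interval from -2.98 to 0.14 that leaves room for a large difference. Within the Rip-cre libraries alone 0 members and 1.4% of genes were called by limma, with 3 members and 17.4% of all genes at an unadjusted p under 0.05 and differences of 0.59 for Fos, 1.38 for Fosb and 0.74 for Egr1 on the log2 scale. Fosb was called there when knockout ALDH+ library 2 was left out (1.73, limma adjusted p = 0.0471).

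**Figure D2:**
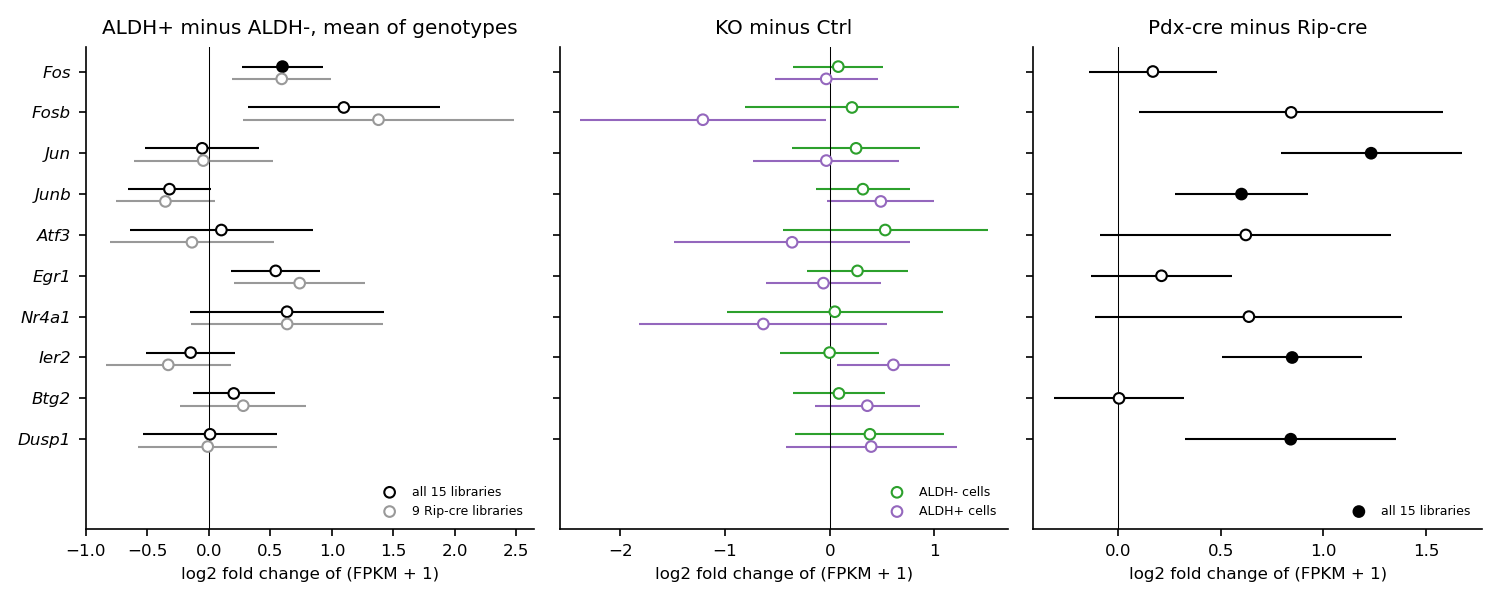
Difference in log2(FPKM + 1) of each member in the ALDH comparison (all 15 libraries in black, the 9 Rip-cre libraries in grey), the genotype comparison (ALDH- cells in green, ALDH+ cells in purple) and the cre comparison, with whiskers for the 95% interval and filled points for an adjusted p under 0.05. In the ALDH comparison averaged over genotypes only Fos is filled (0.60), and in the cre comparison Jun (1.23), Ier2 (0.85), Dusp1 (0.84) and Junb (0.60) are filled.

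Several gene groups moved with the ALDH fraction beside the members, and their part in the difference of Fos was not tested. All 6 nuclear long non-coding RNAs of a list that includes Malat1, Neat1, Meg3 and Rian rose in ALDH+ cells, by 0.75 to 2.44 on the log2 scale. Their summed level was 2138 to 5022 FPKM in ALDH+ and 324.2 to 1687 FPKM in ALDH- libraries, without overlap. Among 12 heat shock genes 2 fell, Hspa8 at -0.54 and Hspe1 at -0.75 on the log2 scale, and 0 rose. The list had 3 positive and 9 negative differences, with a median of -0.125. Of 7 alpha, delta and PP cell markers tested, Ppy and Pyy fell, with differences of -2.095 and -2.074 on the log2 scale, and the summed level of the list was 1023 to 13260 FPKM in ALDH+ and 2011 to 73740 FPKM in ALDH- libraries. The beta-cell, acinar, duct, endothelial and leukocyte lists had 0 genes called by limma. Without the insulin genes, the summed beta-cell level was 34290 to 100100 FPKM in ALDH+ and 90370 to 123400 FPKM in ALDH- libraries. The medians of the sums were 89250 and 103200 FPKM, and this difference in sums was not tested. Most of each sum was Iapp, at 33200 to 97370 FPKM in ALDH+ and 81980 to 125100 FPKM in ALDH- libraries before rescaling. Of the 8 beta-cell markers tested, 4 had positive and 4 negative differences, with a median of 0.023 on the log2 scale. At an unadjusted p under 0.05 there was 1 beta-cell gene, as higher, and 1 leukocyte gene, as lower, against 20.8% of all genes in either direction. No mesenchymal marker passed the filter. Of 7 housekeeping genes 1 fell, Ppia at -0.58.

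Other early response genes were compared in the same way. Of 41 tested, 2 rose in ALDH+ cells: Arc, a synaptic activity gene, by 1.09, and Nfkbiz, a regulator of NF-kappaB, by 0.61 on the log2 scale. Arc was at 0.645 to 3.19 FPKM in ALDH- and 1.12 to 11.7 FPKM in ALDH+ libraries, and Nfkbiz at 12.9 to 33.8 and 25.0 to 49.0 FPKM. The median difference of the list was 0.05 on the log2 scale. Of 24 genes of the pathways that induce the members, among them CREB, SRF and MAP kinase genes, 0 were called by limma. At an unadjusted p under 0.05 there were 7, with 3 higher and 4 lower, against 20.8% of all genes in either direction. The smallest adjusted p in that list was 0.095, for the kinase Map2k2 (-0.51).

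The genotype made no detectable difference to any member at this number of libraries. In ALDH- cells 0 of 10 members and 0.0178% of genes were called by limma, and 0 members had an unadjusted p under 0.05. The differences, knockout minus control, were positive for 9 of 10 members, with a median of 0.23 on the log2 scale against 0.00 over all genes (-0.003). Atf3, a stress-induced factor that can repress its targets, had the largest, 0.53 ± 0.46. Its values were 3.19, 4.09 and 13.3 FPKM in control ALDH- and 8.76, 16.5, 8.87, 13.9 and 3.19 FPKM in knockout ALDH- libraries. The highest control and the lowest knockout library, both Pdx-cre, crossed over. Within the Rip-cre libraries the difference of Atf3 was 1.40 ± 0.37 (limma unadjusted p = 0.00361, adjusted p = 0.744). For Fos the 95% interval was -0.35 to 0.51, and for Egr1 it was -0.21 to 0.74 on the log2 scale.

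In ALDH+ cells 0 members were called by limma and 0% of genes were called, with 744 genes and 2 members at an unadjusted p under 0.05. These were Fosb, at -1.21 ± 0.55 on the log2 scale (adjusted p = 0.746), and Ier2, at 0.61 ± 0.26 (adjusted p = 0.725). Junb was at 0.49 ± 0.24. Btg2 was at 65.0 and 53.6 FPKM in the control and 90.7, 71.5, 62.9, 76.9 and 71.5 FPKM in the knockout, where only knockout library 3 lay below the higher control value. After rescaling between libraries Btg2 was the 1 member whose genotypes did not overlap, as 4.24% of genes were higher without overlap. Its difference was 0.36 ± 0.24 on the log2 scale (limma adjusted p = 0.866).

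The cre driver was the comparison in which most members differed. Jun, Ier2, Junb and Dusp1 were higher in Pdx-cre than in Rip-cre cells, 4 of 10 members where 9.73% of genes were called and 5.68% as higher. All 10 estimates were positive, with a median of 0.63 on the log2 scale against -0.01 over all genes, although that of Btg2 was 0.00 (0.004) and turned to -0.04 without rescaling between libraries. The labels give no date of preparation, so the driver and any batch that followed it cannot be told apart.

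Jun, the main partner of Fos in AP-1, showed the largest difference. In Rip-cre libraries it was at 11.2 and 12.8 FPKM in control ALDH-, 18.5, 18.4 and 16.9 FPKM in knockout ALDH-, 12.3 FPKM in control ALDH+ and 19.997, 9.99 and 20.8 FPKM in knockout ALDH+ cells. In Pdx-cre libraries it was at 43.8 FPKM in control ALDH-, 45.2 and 29.2 FPKM in knockout ALDH-, 44.2 FPKM in control ALDH+ and 22.2 and 38.4 FPKM in knockout ALDH+ cells. Every Pdx-cre value lay above every Rip-cre value, which 1.03% of genes tested did as higher. With the 4 groups in the model the difference was 1.23 ± 0.21 on the log2 scale, a 2.35-fold higher level (limma adjusted p = 0.00186). It held with each of the 15 libraries left out in turn, between 1.06 and 1.39 (limma adjusted p at most 0.0114).

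Ier2 was at 12.7 to 26.3 FPKM in 8 Rip-cre libraries and at 36.8 FPKM in knockout ALDH+ library 3, against 32.1, 36.2, 45.8, 37.2, 41.5 and 41.8 FPKM in the Pdx-cre libraries. Only that 1 Rip-cre library reached into the Pdx-cre range. Its difference was 0.85 ± 0.16 on the log2 scale, or 1.799-fold (limma adjusted p = 0.00417), and it too held without any 1 library (limma adjusted p at most 0.0166). Junb, an AP-1 member that often acts against Jun, was at 10.1 to 23.2 FPKM in Rip-cre and 16.8 to 30.7 FPKM in Pdx-cre libraries, which overlapped. Its difference was 0.60 ± 0.15, or 1.52-fold (limma adjusted p = 0.0207). Leaving out control ALDH- library 3, control ALDH+ library 1 or 2, or knockout ALDH+ library 5 gave 0.53 each time, and leaving out knockout ALDH- library 5 gave 0.58, and each ended the call (limma adjusted p 0.0508 to 0.0757).

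Dusp1 was at 24.3 to 62.0 FPKM in Rip-cre and 43.9 to 115.03 FPKM in Pdx-cre libraries, and its 2 highest values were in knockout library 5 of each fraction. The difference was 0.84 ± 0.24 on the log2 scale, or 1.79-fold (limma adjusted p = 0.0391). This call was the least firm. It was lost without the filter (adjusted p = 0.0907), without the variance trend (0.0674), with the trend on gene length removed (0.77, adjusted p = 0.0631) and without any of 9 libraries: control ALDH- 2 and 3 (0.76 and 0.73), knockout ALDH- 1 and 5 (0.78 and 0.72), control ALDH+ 1 and 2 (0.76 and 0.75) and knockout ALDH+ 1, 2 and 5 (0.85, 0.82 and 0.72).

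Fos and Egr1, the most abundant members, were at 0.17 ± 0.15 and 0.21 ± 0.16 on the log2 scale in this comparison (limma adjusted p = 0.512 and 0.455). Fosb was at 0.84 ± 0.35 (adjusted p = 0.141), Nr4a1 at 0.64 ± 0.35 (0.277) and Atf3 at 0.62 ± 0.33 (0.262). Fosb passed without knockout ALDH+ library 3 (1.05, limma adjusted p = 0.0377), and Atf3 without knockout ALDH- library 5 (1.00, 0.0237). Within the ALDH- cells Jun, Ier2 and Junb did not overlap between drivers, as 5.65% of genes were higher without overlap, and within the ALDH+ cells Jun and Atf3 did not, against 6.92%. The ALDH difference of no member differed between the drivers by limma (0% of genes called, 511 genes and 0 members at an unadjusted p under 0.05).

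**Figure D3:**
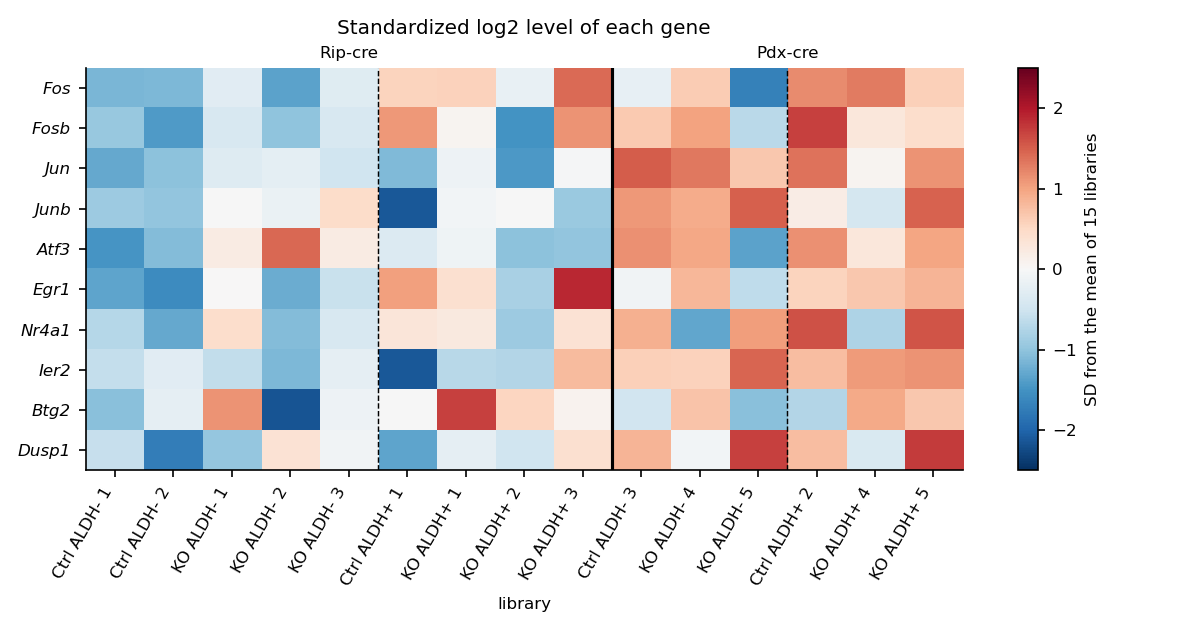
Level of each member in every library, as log2(FPKM + 1) standardized over the 15 libraries, with the 9 Rip-cre libraries at the left, the 6 Pdx-cre libraries at the right and a dashed line between ALDH- and ALDH+ within each; red is above and blue below the mean. The mean of the 10 members is highest in knockout ALDH+ library 5 (1.06) and control ALDH+ library 2 (0.86), both Pdx-cre, and lowest in control ALDH- libraries 2 (-1.08) and 1 (-0.997), both Rip-cre.

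Marker genes of other cells moved with the cre driver as well. Of 7 alpha, delta and PP markers tested 5 rose in Pdx-cre libraries, among them Gcg by 3.13, Sst by 2.36 and Ppy by 2.31 on the log2 scale, and the summed level of the list was 1353 to 73740 FPKM there and 1023 to 3781 FPKM in the other libraries. Of 7 acinar markers tested 2 rose, among them Ctrb1 by 4.83. All 7 were higher at an unadjusted p under 0.05, as were 13.7% of all genes. The list had a summed level of 3.06 to 1391 FPKM against 0.182 to 4.06 FPKM, where Ctrb1 alone reached 1223 FPKM. Pnlip and Prss2 were at 0 in every Rip-cre library. Of 3 duct markers tested Krt19 rose by 1.90 and 2 had negative differences, with a median of -0.017. The summed duct level was 99.3 to 159.5 FPKM in Pdx-cre and 101.7 to 135.4 FPKM in Rip-cre libraries. Most of this sum was Krt7, at 91.6 to 140.8 FPKM in Pdx-cre and 82.6 to 134.7 FPKM in Rip-cre libraries. Krt19 had medians of 9.92 and 0.752 FPKM. The 2 leukocyte markers tested, Cd68 and Cd74, rose by 1.462 and 1.804. Of the 7 measured, however, Emr1 and Lyz2 were at 0 in every Pdx-cre library, and Ptprc reached 0.0214 FPKM at most there. Of 8 beta-cell markers 5 fell, with Slc2a2 at -2.87. The endothelial and mesenchymal lists stayed at or below 4.37 FPKM in sum, with Cdh5, Kdr and Tie1 at 0 in every Pdx-cre library. The 4 Pdx-cre libraries with the most islet hormone marker RNA were control ALDH- 3, control ALDH+ 2 and knockout ALDH- 4 and 5. Without them 50 genes and 0 members were called by limma, and the differences were 0.82 for Jun (adjusted p = 0.354), 0.69 for Ier2 (0.338), 0.51 for Dusp1 (0.656) and 0.37 for Junb (0.635). Without the 3 Pdx-cre libraries with the most acinar marker RNA, control ALDH+ 2 and knockout library 5 of both fractions, 132 genes and 0 members were called, with Jun at 1.175 (adjusted p = 0.0574), Ier2 at 0.62 (0.148), Junb at 0.38 (0.367) and Dusp1 at 0.37 (0.563). The limits behind both choices of libraries were set after the marker levels were known, and fewer Pdx-cre libraries remained in each fit.

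Other early response genes also differed by cre driver. Of 41 other early response genes tested, 15 rose in Pdx-cre libraries and 0 fell, with a median difference of 0.54 on the log2 scale. Among them were Fosl2, a further AP-1 subunit, by 1.61, Rgs2, a regulator of G protein signalling, by 1.59, Gem, a small GTPase, by 1.43, Errfi1, an inhibitor of EGF receptor signalling, by 1.13, and the cell cycle inhibitor Cdkn1a by 0.99. Fosl2 was at 3.24 to 13.5 FPKM in Rip-cre and 10.9 to 39.1 FPKM in Pdx-cre libraries, and Rgs2 did not overlap, at 5.90 to 20.2 against 23.6 to 74.8 FPKM. Heat shock genes rose in 5 of 12 cases, among them Dnajb1 by 1.18 and Hspa1b by 1.79, the latter a near-identical copy of Hspa1a whose reads cannot be assigned with certainty. Of 24 upstream genes Map2k1 rose by 0.65 and Atf2 fell by 0.46. Among 7 housekeeping genes Gapdh and Actb rose, by 1.34 and 0.90 on the log2 scale. Of the 6 nuclear non-coding RNAs 0 were called by limma, with 1 at an unadjusted p under 0.05, against 25.7% of all genes. The share of these changes that goes with other cell types was not tested.

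**Figure D4:**
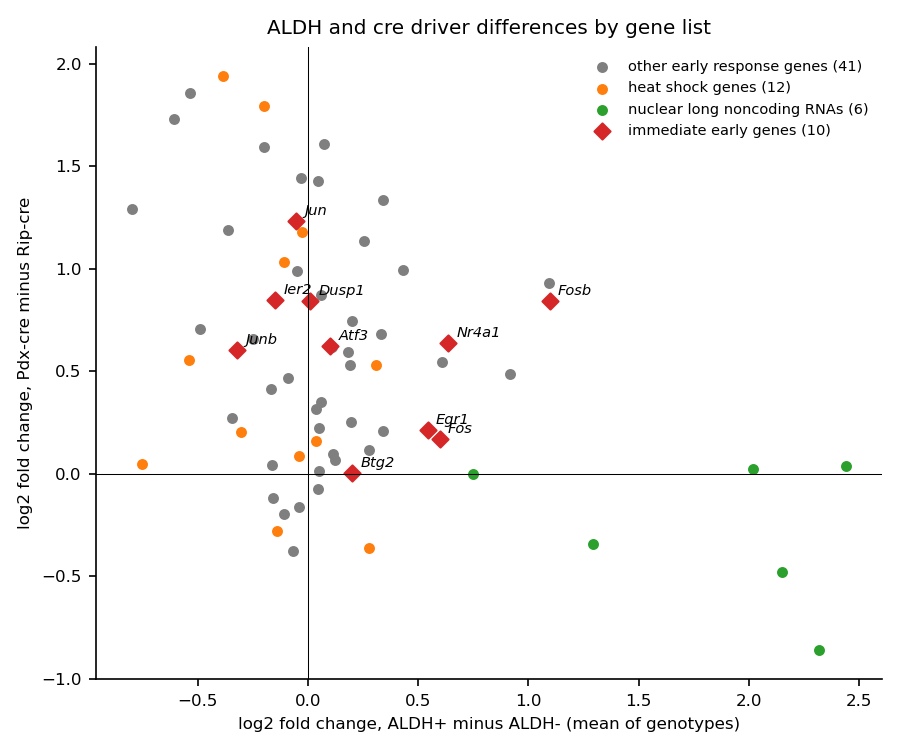
Difference in log2(FPKM + 1) between cre drivers (vertical) against that between ALDH fractions (horizontal) for the members, 41 other early response genes, 12 heat shock genes and 6 nuclear RNAs, 1 point a gene. Fos, Egr1 and Fosb lie to the right with ALDH differences of 0.60, 0.54 and 1.10, whereas Jun, Ier2, Junb and Dusp1 lie higher up, at ALDH differences from -0.32 to 0.01, and the 6 nuclear RNAs stand at 0.75 to 2.44 on the horizontal axis.

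The members did not vary as 1 block across the 15 libraries. Fos followed Egr1 most closely, with Pearson's r of 0.883 and Spearman's rho of 0.829 on log2(FPKM + 1) (permutation p = 2e-05 and 0.00027, unadjusted, 9 correlations computed), and r was 0.907 without the 2 libraries farthest from the median of Fos. The value was 0.955 in the Rip-cre and 0.902 in the Pdx-cre libraries, and 0.833 in ALDH- and 0.768 in ALDH+ cells. Fos followed Fosb with an r of 0.792 and a rho of 0.75 (permutation p = 0.00063 and 0.00186), 0.789 without those 2 libraries, 0.841 in Rip-cre and 0.741 in Pdx-cre. Of all genes tested 0.0267% had an r with Fos at least as high as Egr1, and 0.444% at least as high as Fosb. Btg2 had an r of 0.582 and a rho of 0.589 (permutation p = 0.0228 and 0.0238), 0.577 without the 2 libraries, but -0.279 within ALDH+ cells, and 0.484 without knockout ALDH- library 2. Jun (0.320), Atf3 (0.311), Nr4a1 (0.267), Ier2 (0.227), Dusp1 (0.044) and Junb (-0.136) had a permutation p above 0.05, with rho of 0.404, 0.314, 0.157, 0.304, 0.161 and -0.096. For some of them r differed between the drivers: it was 0.804 in Rip-cre and -0.273 in Pdx-cre for Nr4a1, -0.184 and 0.736 for Atf3, 0.227 and -0.499 for Ier2, and 0.243 and -0.623 for Dusp1, and these differences were not tested. Without knockout ALDH- library 2 the r of Atf3 was 0.536 (permutation p = 0.0478). The permutations took all 15 libraries together without regard to group or cre driver, so differences between groups enter these p-values. After group and cre driver were removed, r with Fos was 0.841 for Fosb, 0.781 for Egr1, 0.503 for Btg2, 0.451 for Jun and 0.377 for Atf3. It was 0.151 for Ier2, -0.161 for Nr4a1, -0.296 for Junb and -0.377 for Dusp1. These libraries share the sort and the depth of sequencing, and r is given as a description.

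Among all genes tested, the one most like Fos was Rian, a non-coding RNA of an imprinted locus, with an r of 0.904, followed by Malat1 with 0.893. Both belong to the nuclear list that differed between ALDH fractions, and within fractions the r of Malat1 with Fos was 0.795 in ALDH- and 0.563 in ALDH+ cells. Fosb was most like Egr1 (0.865), itself most like Cacna1a (0.896). Junb was most like 1500003O03Rik (0.944), Dusp1 like Birc3 (0.932), Ier2 like Pgm2 (0.899), Nr4a1 like Smox (0.875), Btg2 like Pcgf6 (0.874) and Atf3 like Mettl1 (0.817). The genes outside the 10 whose levels were most like the mean of the members were Zfp36 (r of 0.901), BC021767 (0.897), Errfi1 (0.896), Pcp4 (0.874), Stk32a (0.856), Diras2 (0.854), Tnfsf10 (0.839), Npas4 and Herc4 (0.835 each) and Ceacam1 (0.822). Zfp36, which binds and destabilizes short-lived messenger RNAs, Errfi1 and Npas4 are early response genes themselves. Zfp36 ranged from 29.8 to 64.6 FPKM over the 15 libraries.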

How the data were processed

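Poly-A RNA of RFP-positive islet cells was made into TruSeq libraries. The deposited tables give FPKM per gene with an interval, in the layout of Cufflinks (its version is not given in the sources used here). The authors aligned reads to mm9, and the submitters' processing notes name TopHat2 2.0.4 and bcl2fastq 1.8.4. Strandedness is not stated. Of 23699 entries, 22924 genes were kept after 712 lines with a repeated symbol and 63 further lines with a failed or too deep estimate were left out, among them the insulin genes. Fragments were worked out from each FPKM and its interval (66.5% of the values under 500 fragments were within 0.02 of a whole number), and intervals cover counting error only, since no molecular identifiers were used.

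Libraries were scaled to each other with trimmed means of M-values, without weights (30% and 5% trimmed), and genes with a mean FPKM of at least 1 were kept (11253 over 15 libraries, 11125 over the 9 Rip-cre ones). Fold changes are on the log2(FPKM + 1) scale, which understates those of low genes. They were tested two-sided with limma 3.58.1 (R 4.3.3, variance trend) with the 4 groups and the cre driver as terms and Benjamini-Hochberg adjustment over all genes at 0.05. The study used a count test, for which FPKM are not suited. Exact permutations and correlations (100000 resamples) used Python 3.11.15, numpy 2.4.6, pandas 2.3.3 and scipy 1.17.1, and their p-values are unadjusted. The fits were tested on simulated data with planted changes in well-expressed genes. Those changes were larger than the member differences called between ALDH fractions or cre drivers. The power at the observed sizes was not tested. FPKM per library are as deposited.

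All 10 members were named in every comparison. For each other list the genes with the smallest p were named (up to 5 that passed and up to 3 others), with the genes most correlated with the members. The gene most correlated with Jun is not reported here. The members and lists were chosen with earlier results of these data known. Alternatives were no or median-of-ratios scaling, pseudocounts 0.1 and 5, no filter or 5, no cre term, Rip-cre libraries only, the compared groups only, replicate blocks, no length or variance trend, and each library left out. After the data were seen, limma-voom on fragments and fits without libraries high in other cells' markers were added.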

Additional observations from a re-analysis of the deposited data

How the results depend on the processing

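The count of members called between ALDH fractions, 1, became 0 with no filter, no cre term, Rip-cre libraries only or no variance trend, 2 with limma-voom on fragments, and 0 to 3 with 1 library left out. The Rip-cre count, 0, was 0 to 1 with 1 library left out. In the controls it was 1 with the compared groups fitted alone. Between cre drivers 4 became 2 to 5 with 1 library left out and 0 without the Pdx-cre libraries high in islet hormone or in acinar markers. Counts over all genes ranged from 3 to 831 between ALDH fractions (673 reported), 0 to 449 in the controls, 50 to 1266 between drivers (1095 reported) and 0 to 317 in the Rip-cre libraries (156 reported). The 3 between ALDH fractions came without control ALDH+ library 1, whereas leaving out any other single library gave 303 to 831. Of the genes called between ALDH fractions 37.1% were higher, against 52.8% with the length trend removed, 51.4% without the cre term, 49.7% without a filter and 58.8% with limma-voom.

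No source says whether a number shared by an ALDH- and an ALDH+ library marks a common sort. The deviations of same-numbered knockout libraries correlated at 0.092, 0.05 and 0.037 in Rip-cre, where each library was closest to its own number. In Pdx-cre the value was 0.207. Only replicates 4 and 5 made up each knockout fraction there, so their deviations mirror each other. The 0.207 is therefore a single value and cannot be set beside those of Rip-cre. The pairing is left undecided. With a replicate block on equal numbers 0 members and 9 genes were called between ALDH fractions, and Dusp1 turned to -0.23. With the block within cre driver 1 member was called, and Dusp1 was at -0.12.

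Signs also turned for members that were not called. Between ALDH fractions Jun was at 0.048 without the cre term, Atf3 at -0.14 and Dusp1 at -0.01 in Rip-cre libraries, and Ier2 at 0.10 with the length trend removed. With 1 library left out the ranges crossed 0 for Jun (-0.22 to 0.12), Atf3 (-0.15 to 0.36), Ier2 (-0.337 to 0.058), Dusp1 (-0.14 to 0.17) and, in the knockout, Nr4a1 (-0.058 to 0.608). Between drivers Btg2 was at -0.044 without rescaling, -0.036 with the length trend removed and -0.082 to 0.07 with 1 library left out. The correlation of Dusp1 with Fos was -0.033 without rescaling and -0.13 to 0.34 with 1 library left out, and that of Junb was -0.24 to 0.07. The cause was not tested for any of these. Of the other values, 1231 kept their direction and their side of the threshold, 38 lost and 9 gained a call.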

Other observations

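The ratio of Fosb to Fos, 2 genes of the same family, was not the same in all libraries. Fosb was at 2.25% to 18.8% of the Fos level in FPKM, with the highest shares in control ALDH+ libraries 2 and 1 (18.8% and 14.4%) and the lowest in knockout ALDH+ library 2 (2.25%) and control ALDH- library 2 (3.14%). Jun was at 8.80% to 43.9% of Fos, between 8.80% and 24.0% in the Rip-cre and between 13.3% and 43.9% in the Pdx-cre libraries. Within the 2 knockout groups of 5 libraries, no value of a member stood apart from the rest by Dixon's criterion (20 sets of values tested).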
